A study of Homo sapiens with 6 samples.

Results

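The genes examined were the AP-1 subunits and immediate early genes FOS, FOSB, FOSL1, FOSL2, JUN, JUNB, JUND, ATF3, EGR1 and IER3, taken by symbol from the deposited table of read counts. All 10 were found among the 58735 genes of that table. RNA-Seq had been performed on BT549, a widely used basal-like line of human breast cancer cells with a mesenchymal character, in 3 libraries from cells given the solvent DMSO and 3 libraries from cells given AS1842856, a small molecule that binds FOXO1 and hinders its contact with DNA. Both groups were treated for 48 h and carried no genetic change made for the study. The labels give the concentration of AS1842856 as 200 nM and the study's methods give 1 μM, and which was used for these libraries was not resolved here. The replicates, named A, B and C in each group, were called biological replicates in the methods. The p-values measure the spread between these libraries of 1 cell line at 1 time point.

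AP-1 is a dimeric transcription factor in which a JUN protein pairs with a FOS protein or with another JUN protein through a leucine zipper, and FOS proteins do not form stable pairs with one another. The dimer binds the sequence TGANTCA, and which subunits are present changes how strongly it activates transcription. Many of these genes are immediate early genes, which are transcribed within minutes of a growth factor or stress signal without new protein synthesis and give short-lived RNAs, whereas FOSL1, FOSL2 and JUND can stay expressed in growing cells. FOSL1 is known as a prominent AP-1 subunit of basal-like and mesenchymal breast cancer cells.

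The libraries held from 15289500 to 22981832 counts on genes, and 14338 genes had enough counts to be tested with edgeR's quasi-likelihood test. An adjusted p (Benjamini-Hochberg, over all genes tested) under 0.05 is referred to as a call. Of all genes tested, 56% were called, 27.6% as higher and 28.4% as lower with AS1842856, so that a call alone sets no gene apart in these data. The median log2 fold change of all genes tested was 0.00, which the scaling between libraries tends to bring about by design. It therefore cannot show whether the total RNA of a cell changed, and levels are relative to the other genes of a library. Levels of 1 gene across libraries are given in CPM, the gene's share of a library's counts after scaling by the TMM method (edgeR). The 7 marker genes expected in BT549 cells, among them VIM, ZEB1 and CD44, had counts in every library, with a mean in DMSO between 69.7 CPM for ZEB1 and 1322 CPM for VIM. The 5 epithelial and hormone receptor markers expected to be low summed to between 1.04 and 1.13 CPM in DMSO and between 0.280 and 0.600 CPM with AS1842856. The markers of blood, endothelium and liver summed to between 0.754 and 1.63 CPM in DMSO and between 2.70 and 3.93 CPM with AS1842856, mostly from PTPRC. CD3E and CDH5 had 0 counts in all libraries. The part of other cell types in the results was not tested. FOXO1, whose protein the compound binds, rose from 4.22 ± 0.608 to 13.8 ± 0.241 CPM (SD, n = 3).

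AS1842856-treated cells had more RNA of 6 of the 10 genes (FOS, FOSL2, JUN, ATF3, EGR1 and IER3) and less of 3 (FOSL1, JUNB and JUND), and FOSB was not called. The 6 genes called higher are 60% of the 10 genes, beside 27.6% of all genes tested, and the 3 called lower are 30%, beside 28.4%. The largest change was that of IER3, which rose 4.08-fold, and the smallest change that was called was that of JUNB, which was 1.22-fold lower. For 9 of the 10 genes the 3 DMSO libraries and the 3 AS1842856 libraries did not overlap, as was the case for 59.9% of all genes tested. Within the FOS family, FOSL1 was lower and FOSL2 higher with AS1842856, and within the JUN family, JUNB and JUND were lower and JUN higher.

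The promoters of EGR1, JUND and JUNB are shown because each holds a match to a searched motif that is uncommon among promoters. RefSeq (GRCh38.p14) gave promoters for 8 of the 10 genes, with 9 start sites in all, since ATF3 had more than 1. FOSL1 and IER3 had no entry. Each line gives the 250 bases before the start site, read 5′ to 3′ on the gene's own strand, with every match to a searched motif in capitals. The EGR1 promoter is chr5:138465229-138465478 on the plus strand, the JUND promoter chr19:18281623-18281872 on the minus strand and the JUNB promoter chr19:12791236-12791485 on the plus strand.
EGR1: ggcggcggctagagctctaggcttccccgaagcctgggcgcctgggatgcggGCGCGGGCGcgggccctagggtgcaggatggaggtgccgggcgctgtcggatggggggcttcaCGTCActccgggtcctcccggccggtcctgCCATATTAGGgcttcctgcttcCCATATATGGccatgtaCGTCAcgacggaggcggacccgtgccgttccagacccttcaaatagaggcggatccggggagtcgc
JUND: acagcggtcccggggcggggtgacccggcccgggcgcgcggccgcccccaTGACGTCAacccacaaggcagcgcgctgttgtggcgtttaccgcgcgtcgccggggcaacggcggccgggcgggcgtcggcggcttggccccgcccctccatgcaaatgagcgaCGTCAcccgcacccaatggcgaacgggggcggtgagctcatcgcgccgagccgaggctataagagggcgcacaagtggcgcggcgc
JUNB: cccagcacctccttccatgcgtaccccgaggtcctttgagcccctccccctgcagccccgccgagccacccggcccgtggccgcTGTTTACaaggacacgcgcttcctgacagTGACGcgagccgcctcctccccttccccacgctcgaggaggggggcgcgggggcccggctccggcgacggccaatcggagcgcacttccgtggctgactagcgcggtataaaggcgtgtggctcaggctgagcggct

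The EGR1 promoter held 2 CArG boxes, the element bound by serum response factor in immediate early promoters, at 105 to 96 and at 83 to 74 bases before the start site. A CArG box was present in 1.29% of the 35116 promoters of the table, read on both strands over 250 bases before and 50 bases after the start, and in 1 of the 9 promoters of these genes. Sites farther upstream were not searched, for FOS or any other gene. The EGR1 promoter also had the letters of the EGR1 protein's own site, GCGNGGGCG, at 198 to 190 bases before the start, which 9.43% of all promoters held. The full cAMP response element, TGACGTCA, stood in the JUND promoter at 200 to 193 bases before the start and in 1.85% of all promoters. Its core, TGACG, which lies within the full element and is counted there too, was found in 7 of the 9 promoters (those of JUN, FOSL2, EGR1, FOS, JUNB, JUND and FOSB) and in 24.6% of all promoters. The AP-1 site in the exact form TGANTCA was found for FOSL2 alone, at 4 to 10 bases after the RefSeq start, and in 7.71% of all promoters. Related forms were not searched, such as TGACATCA, which stands in the RefSeq windows of JUN and of 1 ATF3 start. The RefSeq windows of JUN and FOSL2 and 1 of those of ATF3 lie inside the gene as the GENCODE annotation below places it, and those of FOS and the other ATF3 start overlap its beginning. The matches for JUN and FOSL2 therefore fall within the annotated gene, not upstream of it. The forkhead site GTAAACA was found on the opposite strand of the JUNB promoter, at 166 to 160 bases before the start, and in 3.42% of all promoters. The printed promoters are rich in G and C, at 68.4% for EGR1, 74.8% for JUND and 70.8% for JUNB, beside a median of 58% over all promoters. These matches describe the letters only, and no binding was measured.

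In the GENCODE 29 annotation (GRCh38), the genes lie at chr14:75278774-75282230 (FOS, plus strand), chr19:45467995-45475179 (FOSB, plus), chr11:65892049-65900573 (FOSL1, minus), chr2:28392448-28417312 (FOSL2, plus), chr1:58780788-58784327 (JUN, minus), chr19:12791496-12793315 (JUNB, plus), chr19:18279760-18281622 (JUND, minus), chr1:212565334-212620777 (ATF3, plus), chr5:138465490-138469315 (EGR1, plus) and chr6:30743199-30744554 (IER3, minus). All 10 are protein-coding. JUN, JUNB and JUND have 1 exon, EGR1 and IER3 have 2, and FOS, FOSB, FOSL1, FOSL2 and ATF3 have 4 in the transcript used here, whereas 20.2% of the 12171 protein-coding genes tested have at most 4. The median transcript was 2096 bases long, compared with 3232 bases for all of these protein-coding genes, although those of FOSL2 (6708 bases), FOSB (3775) and JUN (3540) were longer than that median. AU-rich elements in the 3′ untranslated region, built around ATTTA in DNA letters, are a known mark of short-lived RNAs. Every one of the 10 genes had at least 1 ATTTA there, as did 70.6% of the protein-coding genes tested. FOSL2 had 9 copies, IER3 had 6 and FOS had 5, whereas FOSL1, JUND and EGR1 had 1 each. Per 1000 bases of untranslated region, IER3 had 8.14 copies and FOS had 6.20, compared with a median of 1.69 over the protein-coding genes tested. The longer form TTATTTATT was present in FOS and FOSL2, and in 8.89% of the protein-coding genes tested.

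Levels were compared between genes by FPKM, which is divided by gene length. The lengths implied by counts and FPKM were 4039 to 4091 bases for ATF3, 3237 to 3279 for FOS and 5551 to 5623 for FOSB. These are longer than the transcripts used above (2033, 2158 and 3775 bases). For EGR1 the implied length was 3137 to 3177 bases, near its transcript of 3138. The order of genes by FPKM therefore depends on the lengths used. In DMSO, FOSL1 was the most abundant of the 10 genes at 145.5 ± 3.44 FPKM (SD, n = 3), above 98.5% of all genes tested. JUN followed at 86.4 ± 3.20 FPKM, then JUNB at 56.0 ± 4.09 FPKM and JUND at 51.6 ± 4.99 FPKM. JUNB and JUND are neighbours whose libraries overlapped, from 53.6 to 60.7 FPKM for JUNB and from 48.5 to 57.4 FPKM for JUND. IER3 stood at 44.9 ± 1.72 FPKM and FOSL2 at 40.8 ± 0.973 FPKM, with no overlap between their libraries. EGR1 at 3.40 ± 0.515 FPKM and ATF3 at 3.36 ± 0.365 FPKM could not be separated by their libraries at these lengths. FOS at 0.624 ± 0.174 FPKM and FOSB at 0.253 ± 0.0801 FPKM were the least abundant, within the lowest 16.0% and 6.93% of all genes tested. The best-known immediate early subunit, FOS, was thus near the bottom of the expressed genes, and the FOSL subunits were near the top.

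With AS1842856 the order of the abundant genes differed. IER3 was first at 183 ± 18.9 FPKM, with libraries from 169 to 205 FPKM, followed by JUN at 143 ± 1.43 FPKM and FOSL1 at 109 ± 1.27 FPKM. The libraries of these 3 genes did not overlap one another. FOSL2 stood next at 56.0 ± 1.06 FPKM, then JUNB at 46.0 ± 1.32 FPKM and JUND at 34.4 ± 2.15 FPKM, each below the one before in every library. EGR1 at 7.74 ± 0.384 FPKM and ATF3 at 7.43 ± 0.360 FPKM again overlapped at the lengths behind the FPKM. FOS at 1.25 ± 0.0157 FPKM and FOSB at 0.217 ± 0.0443 FPKM kept the last places. The plot of level against change places the 10 genes among all genes tested.

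**Figure D1:**
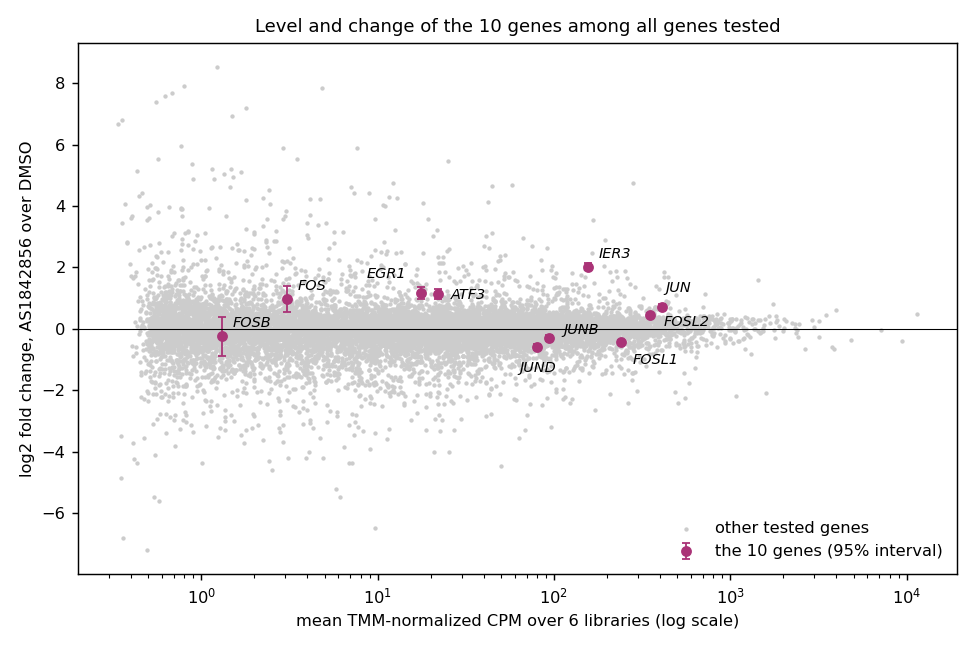
Mean level over the 6 libraries (x axis, TMM-normalized CPM, log scale) against the log2 fold change of AS1842856 over DMSO (y axis) for the 14338 genes tested (grey) and the 10 genes (purple, bars 95% interval). IER3 stands at 2.03 on the y axis, ATF3, EGR1 and FOS near 1, and the abundant FOSL1, FOSL2, JUN, JUNB and JUND between -0.59 and 0.73, while the interval of FOSB spans 0.

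FOSL1 encodes FRA-1, a FOS-family protein that lacks the strong activation domain of FOS. Its level was 283, 275 and 271 CPM in DMSO replicates A, B and C, and 209, 204 and 206 CPM with AS1842856. The groups lay well apart, and the spread within each was small. The log2 fold change was -0.42 (SE 0.037, edgeR quasi-likelihood test, adjusted p = 1.72e-23), a level 1.34-fold lower with AS1842856. FOSL2 encodes the related protein FRA-2 and moved the other way. It had 293, 288 and 301 CPM in DMSO and 412, 399 and 399 CPM with AS1842856. All treated libraries were above all DMSO libraries, with a log2 fold change of 0.46 (SE 0.035, edgeR adjusted p = 2.79e-28), or 1.37-fold. The 2 FOSL genes thus changed by similar amounts on the log2 scale in opposite directions.

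FOS encodes the founding member of the family and rested on few reads, with 59, 26 and 32 counts in DMSO and 67, 94 and 72 counts with AS1842856. Its level was 2.69, 1.69 and 1.72 CPM in DMSO and 4.02, 4.12 and 4.04 CPM with AS1842856. DMSO replicate A was high for its group but still below every treated library. FOS rose 1.96-fold, with a log2 fold change of 0.97 (SE 0.22, edgeR adjusted p = 4.73e-05), and without DMSO replicate A the log2 fold change was 1.24. FOSB, a close relative of FOS best known from neurons, had 41, 15 and 26 counts in DMSO and 16, 28 and 26 counts with AS1842856. Its level was 1.87, 0.977 and 1.40 CPM in DMSO and 0.960, 1.23 and 1.46 CPM with AS1842856, and the groups overlapped. The log2 fold change of FOSB was -0.24 (95% interval -0.89 to 0.40, edgeR adjusted p = 0.549). Neither a decrease nor an increase within that interval could be excluded at this depth. FOSB lies within ERCC1, a DNA repair gene on the opposite strand with 5840 counts over the 6 libraries, and since the use of strand in counting is not given in the sources used here, its low counts are uncertain.

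JUN encodes the subunit with the strongest activation domain of its family. Its level was 321, 302 and 301 CPM in DMSO and 506, 515 and 507 CPM with AS1842856. The treated libraries differed from one another by far less than from the DMSO libraries. JUN rose 1.65-fold, with a log2 fold change of 0.73 (SE 0.035, edgeR quasi-likelihood test, adjusted p = 2.08e-54). JUNB, which can hold back JUN in some dimers, had 111, 98.4 and 98.2 CPM in DMSO and 82.6, 83.1 and 87.2 CPM with AS1842856. DMSO replicate A was again the highest, and the gap between the groups was narrower than for JUN. JUNB fell by 0.29 on the log2 scale (SE 0.047, edgeR adjusted p = 1.52e-08). It lies within the opposite-strand gene HOOK2, whose 1057 counts were 9.97% of those of JUNB. JUND, the JUN protein most often found in resting cells, had 107, 92.0 and 90.9 CPM in DMSO and 69.0, 63.2 and 61.5 CPM with AS1842856. No treated library reached a DMSO library. The log2 fold change of JUND was -0.59 (SE 0.051, edgeR adjusted p = 2.54e-21), a level 1.51-fold lower.

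ATF3 encodes a stress-induced bZIP protein of the ATF/CREB group that can pair with JUN proteins. It had 13.6, 12.2 and 15.2 CPM in DMSO and 28.7, 30.1 and 31.7 CPM with AS1842856. The treated libraries were all above the DMSO libraries, and ATF3 rose 2.20-fold with a log2 fold change of 1.14 (SE 0.087, edgeR quasi-likelihood test, adjusted p = 9.12e-29). EGR1, a zinc finger transcription factor induced by growth factors through ERK signalling and serum response factor, had 11.3, 8.92 and 12.0 CPM in DMSO and 23.04, 24.9 and 25.4 CPM with AS1842856. EGR1 rose 2.26-fold (log2 fold change 1.18, SE 0.097, edgeR adjusted p = 8.34e-26), and the lowest treated library was far above the highest DMSO library. Only 8.20% of all genes tested had a larger change in size than EGR1, in either direction.

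IER3 encodes a small stress- and growth factor-inducible protein that modulates apoptosis. Its level was 59.0, 60.9 and 63.7 CPM in DMSO and 240.3, 230.02 and 279 CPM with AS1842856. Every treated library was several-fold above every DMSO library, and the treated libraries were also more spread than the DMSO libraries. IER3 rose 4.08-fold, with a log2 fold change of 2.03 (SE 0.054, 95% interval 1.92 to 2.13, edgeR quasi-likelihood test, adjusted p = 4.91e-27). Its change ranked 403 of the 14338 genes tested by size, with 2.80% of them larger. As the libraries are made from whole dishes, a higher level in each cell and a larger share of cells with the RNA cannot be told apart for this or any other gene here.

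**Figure D2:**
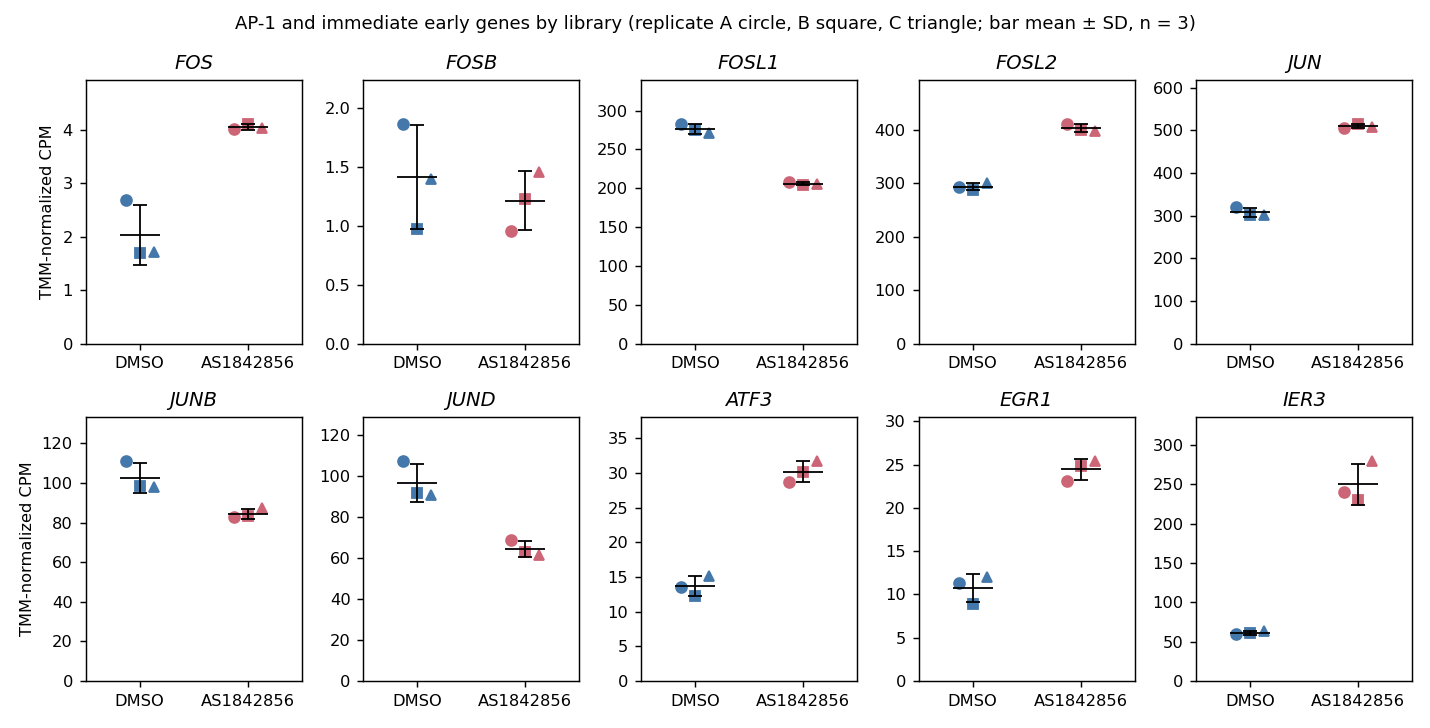
Level of each of the 10 genes in each library (y axis, TMM-normalized CPM from 0, scaled for each gene) for DMSO (blue) and AS1842856 (red), with replicates A (circle), B (square) and C (triangle), and bars for the mean ± SD (n = 3). The groups overlap for FOSB only, and the ratio between group means is largest for IER3, at 61.2 ± 2.36 and 249.9 ± 26.0 CPM.

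The spread between replicates differed among the genes. In DMSO the SD was 2.29% of the mean for FOSL1 and FOSL2 and 27.8% and 31.5% for FOS and FOSB. With AS1842856 it was 20.5% for FOSB, 10.4% for IER3 and 1.27% for FOS. The value for FOS, on 67, 94 and 72 counts, is below the spread that counting error alone gives. It is therefore no measure of how precisely FOS was determined. Within the DMSO group, 6 of the 10 genes (FOS, FOSB, FOSL1, JUN, JUNB and JUND) were highest in replicate A and 4 (FOSL2, ATF3, EGR1 and IER3) in replicate C. Replicate A exceeded the group mean by 0.45 on the log2 scale for FOSB, by 0.44 for FOS, by 0.16 for JUND and by 0.12 for JUNB, while FOSL1 and JUN differed from it by less than 0.06. The 9 called genes were called in the same direction when any 1 library was left out, and the log2 fold change then ranged from 1.94 to 2.09 for IER3, from 0.71 to 0.75 for JUN and from -0.64 to -0.51 for JUND. The plot of the log2 fold changes under every setting shows these ranges.

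**Figure D3:**
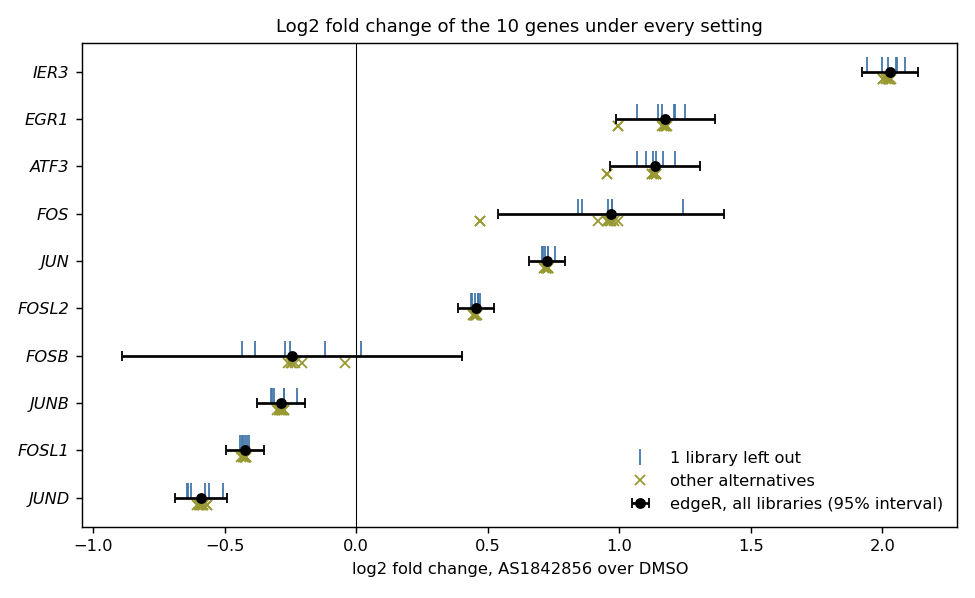
Log2 fold change of AS1842856 over DMSO (x axis) for each of the 10 genes, with the edgeR value and its 95% interval (black), the values with 1 library left out (blue ticks) and the values under other alternatives (olive crosses). FOSB alone crosses 0, and the log2(FPKM + 1) scale gives the low value of 0.47 for FOS.

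The composition of each family was taken as each gene's share of the family's summed FPKM within a library, and so depends on the lengths behind the FPKM. FOSL1 made up 78.1%, 78.1% and 77.0% of the FOS family in DMSO and 65.2%, 65.4% and 65.6% with AS1842856, a difference of -12.3 points. FOSL2 made up 21.3%, 21.5% and 22.6% in DMSO and 33.9%, 33.7% and 33.5% with AS1842856, a difference of 11.9 points. FOSL1 was the majority subunit RNA in both groups. FOS went from 0.333 ± 0.0861% to 0.750 ± 0.0178% of the family (SD, n = 3), and FOSB was at 0.135 ± 0.0404% and 0.131 ± 0.0281%, with overlapping libraries. Together, FOS and FOSB thus contributed little to the family in either group.

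In the JUN family, JUN was 43.3%, 45.2% and 45.3% of the summed FPKM in DMSO and 63.4%, 64.7% and 63.9% with AS1842856, a difference of 19.4 points. JUNB went from 28.8 ± 0.275% to 20.6 ± 0.676%, and JUND from 26.6 ± 0.863% to 15.4 ± 0.906% (SD, n = 3). JUN was therefore below an even split with JUNB and JUND together in DMSO and above it with AS1842856. For 6 of the 7 shares the groups did not overlap, and the exact two-sided permutation test gave p = 0.1, the smallest that 3 libraries against 3 can give, and 0.117 after Benjamini-Hochberg adjustment over the 7 shares. For the share of FOSB the exact permutation p was 0.9. No share could reach 0.05 in this design.

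**Figure D4:**
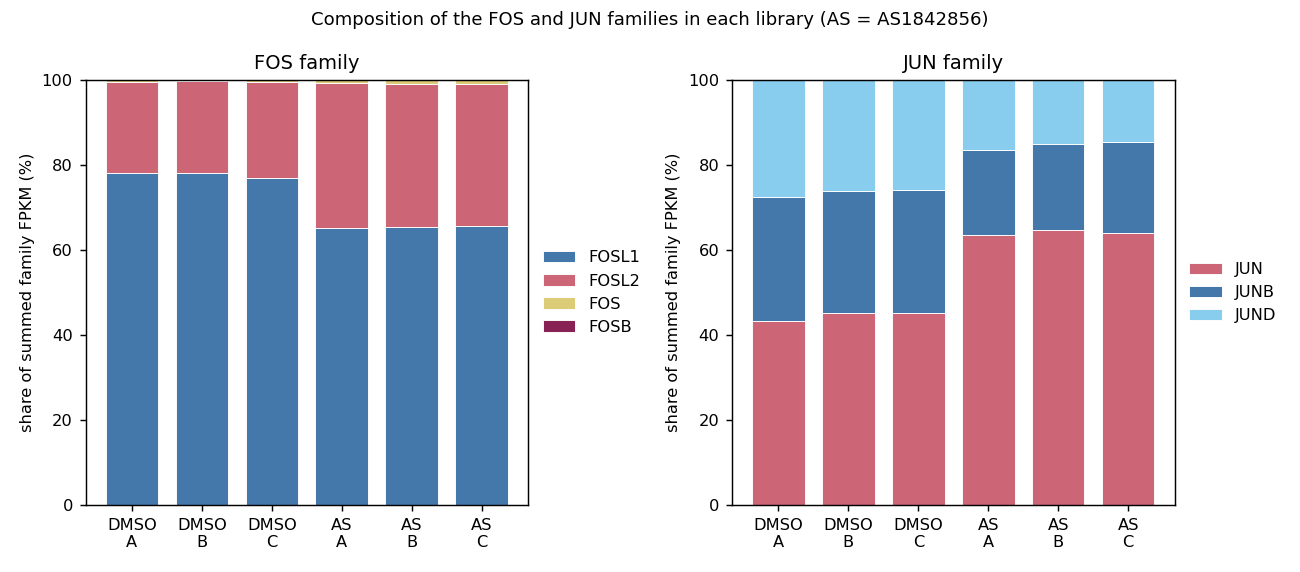
Share of the summed FPKM of the FOS family (left) and of the JUN family (right) in each library (y axis, %, from 0), with DMSO and AS1842856 (AS) replicates A, B and C as bars. FOSL2 is larger with AS1842856 (33.7%) than with DMSO (21.8%), and JUN is larger with AS1842856 (64.0%) than with DMSO (44.6%).

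The summed FPKM of the FOS family was 187 ± 3.48 in DMSO and 166 ± 2.27 with AS1842856 (SD, n = 3), a ratio of 0.887. That of the JUN family was 194 ± 12.3 in DMSO and 224 ± 0.930 with AS1842856, a ratio of 1.15. In both families the groups did not overlap. The JUN family's sum divided by that of the FOS family was 1.09, 1.01 and 1.01 in DMSO and 1.33, 1.36 and 1.35 with AS1842856. At the lengths behind the FPKM it thus went from near balance to an excess of JUN family RNA. The exact two-sided permutation p was 0.1 for each family's summed FPKM and for their ratio (n = 3 per group), the smallest possible. The sums and the ratio depend on these lengths. In mean CPM, which is not divided by length, FOSL1 fell from 276 to 206 and FOSL2 rose from 294 to 403. The rise of FOSL2 in CPM thus exceeded the fall of FOSL1, and the decrease of the FOS family sum holds for FPKM only. These are RNA values, and neither protein nor dimers were measured.

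Of 13 listed other bZIP genes of the AP-1 superfamily, 9 could be tested, 1 was called higher and 2 lower, which is 33.3% called beside 56% of all genes tested. Their median log2 fold change was 0.01. MAFG, which encodes a small MAF protein, rose by 0.55 on the log2 scale, from 43.9 ± 3.30 to 63.9 ± 3.21 CPM (SD, n = 3). JDP2, a repressor that pairs with JUN proteins, fell by 0.70 on the log2 scale from 3.37 ± 0.363 to 2.07 ± 0.237 CPM, and MAFK fell by 0.17. ATF2, a partner of JUN, was at 61.4 ± 3.08 and 59.1 ± 2.80 CPM and was not called.

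Other immediate early genes moved in both directions. Of 29 listed genes, 25 were tested, 11 were called higher and 9 lower, and the median log2 fold change was 0.06. The share called was 80%, beside 56% of all genes tested. EGR3 and NR4A3, both among the 11 called higher, would not have passed the filter on low counts on their DMSO libraries alone. With a filter on the mean over all libraries (at least 50 counts), which leaves both out, 21 were tested, 9 higher and 9 lower, with a median of 0.02. Among those higher, PHLDA1 rose by 1.70 on the log2 scale, from 207 ± 9.51 to 675 ± 6.92 CPM, and the orphan nuclear receptor gene NR4A1 rose by 1.61, from 4.63 ± 1.21 to 14.0 ± 0.621 CPM. EGR3, a relative of EGR1, was called higher on 9, 4 and 2 counts in DMSO and 23, 29 and 13 counts with AS1842856. The ratio of its summed counts, scaled for depth, was 4.21 (95% interval for counting error 2.38 to 7.96). EGR2, another relative, was at 0.946 ± 0.307 and 0.970 ± 0.229 CPM and was not called. The largest decreases were those of CTGF and CYR61, which encode matricellular proteins and fell by 2.41 and 2.24 on the log2 scale, from 444 ± 23.4 to 83.4 ± 3.83 CPM and from 913 ± 63.4 to 194 ± 3.82 CPM. F3, tissue factor, fell by 1.42. DUSP1, a phosphatase that switches off MAP kinases, fell by 0.81, ZFP36, which promotes decay of AU-rich RNAs, fell by 0.67, and IER2 fell by 0.39. Immediate early genes were therefore not called in 1 direction as a class, and neither were the 10 genes.

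Among 22 genes for the kinases and promoter-binding factors upstream of AP-1 and EGR1, 8 were called higher and 9 lower (77.3% called, beside 56% of all genes tested), and the median of their log2 fold changes was -0.07. MAP3K1 and MAP2K4, which encode kinases of the pathway to JNK, the kinase that phosphorylates JUN, rose by 1.21 and 0.77 on the log2 scale, from 8.02 ± 1.09 to 18.4 ± 1.36 CPM and from 52.1 ± 2.89 to 88.5 ± 5.38 CPM. The JNK genes themselves did not share this direction. MAPK8 was at 33.7 ± 1.03 and 31.2 ± 2.31 CPM and was not called (edgeR adjusted p = 0.227), MAPK9 was called lower by a log2 fold change of -0.11 with overlapping groups (edgeR adjusted p = 0.0372) and was called under 7 of 15 alternatives, and MAPK10 fell by 1.51 from a low level of 2.73 ± 0.658 to 0.966 ± 0.0997 CPM. MAPK3, which encodes the kinase ERK1, fell by 0.58, and RPS6KA2 fell by 0.44 but was called under 9 of 15 alternatives. ELK3, a partner of serum response factor, rose by 0.47, and SRF itself fell by 0.15 (edgeR adjusted p = 0.0017), from 129 ± 5.76 to 117 ± 3.002 CPM.

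Of 8 genes whose products repress or remove AP-1 or EGR1 or their RNAs, 7 were tested, 2 were called higher and 2 lower (57.1% called, near the 56% of all genes tested), and the median of their log2 fold changes was 0.07. ZFP36L2 and ZFP36L1, relatives of ZFP36 that promote decay of AU-rich RNAs, fell by 1.17 and 0.40 on the log2 scale, from 95.3 ± 4.57 to 42.4 ± 3.69 CPM and from 249 ± 5.48 to 189 ± 5.57 CPM. ZFP36 itself, listed among the immediate early genes, was also called lower, a call made for 28.4% of all genes tested. COP1, a ubiquitin ligase that targets JUN, rose by 0.27. FBXW7, a ubiquitin ligase component that also targets JUN, was called higher at a log2 fold change of 0.21 (edgeR adjusted p = 0.0276), but its groups overlapped and it was called under 7 of 15 alternatives, with the call lost without DMSO replicate A and without AS1842856 replicate B. NAB2, which binds EGR1 and represses it, was at 55.9 ± 4.79 and 58.7 ± 2.81 CPM and was not called (edgeR adjusted p = 0.321).

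Of 29 well-known AP-1 targets, 20 were tested and each of these was called, 11 higher and 9 lower, beside 27.6% higher and 28.4% lower among all genes tested. Their median log2 fold change was 0.26. IL11 passed the filter on low counts only through the treated libraries, and with the filter on the mean over all libraries 19 were tested, 10 higher and 9 lower, with a median of 0.17. PTGS2, cyclooxygenase 2, rose by 2.59 on the log2 scale, from 7.28 ± 0.914 to 43.4 ± 3.01 CPM, and CCND1, cyclin D1, rose by 1.68 from 201 ± 10.8 to 644 ± 11.3 CPM. IL11 had 1, 1 and 0 counts in DMSO and 15, 26 and 11 counts with AS1842856, for a ratio of 25.3 (95% interval for counting error 6.66 to 214). In the other direction, AXL, a receptor tyrosine kinase also listed among the BT549 markers, fell by 1.65, from 423 ± 6.02 to 135 ± 6.13 CPM. PLAU, urokinase, fell by 1.62 from 125 ± 4.73 to 40.7 ± 1.01 CPM, and IL6 fell by 1.49 from 8.26 ± 0.178 to 2.98 ± 0.458 CPM. The classical target MMP1 had 4, 0 and 0 counts in DMSO and 1, 6 and 6 counts with AS1842856 and was not tested, nor were MMP3, MMP9, MMP10 and MMP13. Genes known as AP-1 targets thus moved in both directions, and the plot of the lists shows the spread of each.

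**Figure D5:**
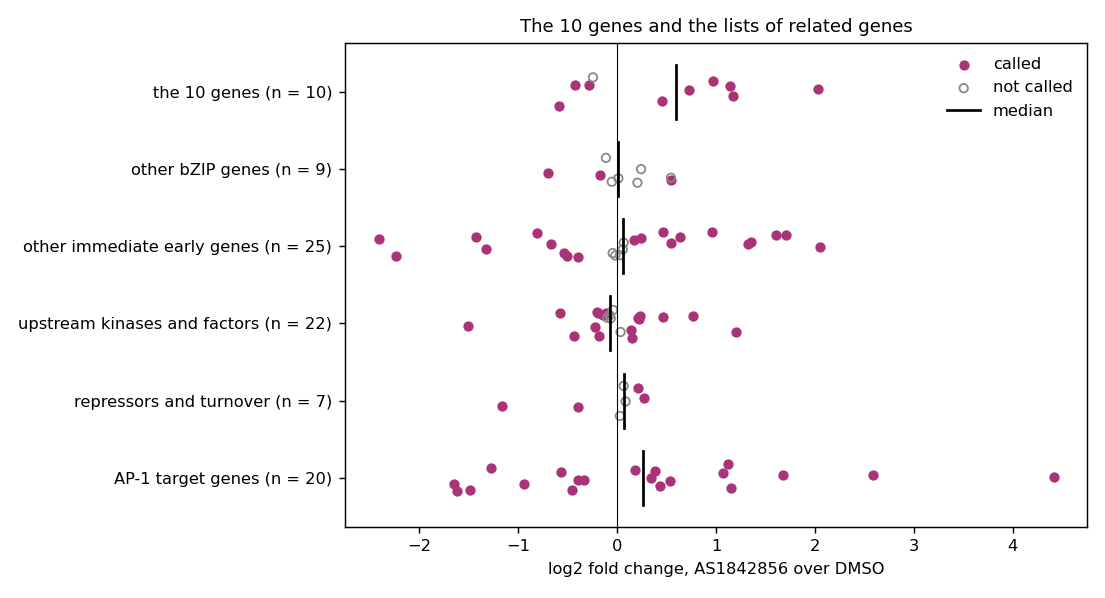
Log2 fold change of AS1842856 over DMSO (x axis) for the tested genes of the 10 genes and of 5 lists of related genes (y axis, n tested in brackets), as filled points where called, open points where not called, and a black line for the median. The points lie on both sides of 0 in each list, with medians of 0.59 for the 10 genes, 0.26 for the AP-1 targets and between -0.07 and 0.07 for the other lists.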

How the data were processed

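RNA-Seq had been performed on 3 DMSO-treated and 3 AS1842856-treated BT549 libraries, grouped here by the treatment and replicate letter in the labels. Per the study's methods, reads were mapped with STAR and FPKM values were used for expression, while the submitters' processing notes name CASAVA and Bowtie 0.12.2 with GRCh38. The authors deposited raw read counts, which carry no normalization. Deposited FPKM values were given for 25015 genes and were 0 wherever the count was 0. The counting tool and the use of strand are not given in the sources used here. All 58735 gene identifiers were found in GENCODE 29 (Ensembl 94, GRCh38), which gave symbols, positions and transcripts.

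The analysis of counts used edgeR 4.0.16 in R 4.3.3, with filterByExpr (minimum count 10, minimum total 15), TMM scaling (factors 0.995 to 1.01) and the robust quasi-likelihood test, with Benjamini-Hochberg adjustment over 14338 genes and a threshold of 0.05. The standard error was taken from the fold change and the F statistic. Library totals ranged from 15289500 to 22981832 counts, and the common biological coefficient of variation was 0.0374. Replicates of a group differed from each other beyond sampling noise (chi-square per degree of freedom 2.36 to 3.27). Intervals on sums of counts pool the libraries of a group, so they take in counting error alone and leave out the spread between libraries. PCR copies of a molecule could not be removed by identifiers, so these intervals may be too narrow even for counting error.

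The 10 genes and the lists of related genes were chosen with earlier results of these data known, and the lists were written from general knowledge. Of each list, the 3 largest called increases and decreases were named, with DUSP1, ZFP36, IER2, NR4A1, NAB2, SRF, MAPK8, JDP2 and MMP1 in any case, and FOXO1. ATF2, EGR2, NR4A3, MAPK9 and PTPRC were named after their values were seen. Family shares were compared by exact permutation of the 6 libraries. Promoter letters were searched in RefSeq sequences on both strands, and no test was made. Alternatives were DESeq2 1.42.0, other size factors, other filters, a fit without each library in turn, a replicate block by letter, and limma 3.58.1 on log2(FPKM + 1) and log2(FPKM + 0.1). Leaving out libraries for the summed FPKM of each family was added after the data were seen. Each test was tried beforehand on simulated counts with known changes. Results of 1 marker gene are not reported here.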

Additional observations from a re-analysis of the deposited data

How the results depend on the processing

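The 9 called genes kept their direction and an adjusted p under 0.05 under all 15 alternatives, and of 396 recomputed values 380 stayed within the limits set for them. These limits were wide. For a fold change they asked for the same sign and call, whatever its size, so FOS stayed within them at 0.47 on log2(FPKM + 1), beside 0.97. Counts of called genes could vary by a set factor, so upstream genes called lower stayed within them at 6 under DESeq2, beside 9. FOSB was not called under any of the 12 alternatives that kept it, and its log2 fold change ranged from -0.43 to 0.02 with 1 library left out. It turned positive (0.0186) without DMSO replicate A. Its share of the FOS family changed sign to 0.0164 points without DMSO replicate A and 0.0109 points without AS1842856 replicate A, over a range of -0.0240 to 0.0164. Other bZIP genes called higher numbered 1 to 2 with 1 library left out, with 2 without DMSO replicate A. Both limma settings that required a mean FPKM of 0.5 or more gave 1 other bZIP gene called lower and 5 upstream genes called lower. Repressors and turnover genes called higher numbered 1 under DESeq2, no filter, the replicate block, both of these limma settings and an adjusted p under 0.01, and 1 to 3 with 1 library left out, with 1 without DMSO replicate A or AS1842856 replicate B, FBXW7 being the call lost under DESeq2, no filter, the block, limma and these leave-outs. The cause was not tested. Same-letter deviations from the group means correlated at 0.042 (A), -0.012 (B) and -0.0033 (C), and those of unlike letters at -0.0278 to 0.0297. With 3 libraries in a group, such correlations cannot settle whether the replicate letters pair the libraries. The replicate block called 7862 genes beside 8029. FOS and FOSB, at 15 to 94 counts a library, are limited by depth.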
